A study of Mus musculus with 12 samples.

Results

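IMCD3 cells are an established line from the mouse inner medullary collecting duct, the last tubule segment of the kidney, where urine is concentrated. In subclone 53a mifepristone induces a dominant-negative mutant that blocks a transcription factor of tubule epithelium, as known of the study. The subclone is 1 clone, and transcripts of that factor itself are not reported here. The comparison here set cells given 100 mM added NaCl with vehicle directly against cells given mifepristone without added NaCl, so that each side carried 1 treatment. Both groups are the same subclone in low-glucose DMEM with 10% FBS, and each holds 3 libraries, A, B and C, which makes 6 of the 12 libraries of the series. The other 6 libraries, with vehicle alone or with both treatments, entered the estimate of spread, and the vehicle libraries are given beside the results as the level without either treatment. The labels give no duration of either treatment, and no group of the 12 libraries received mifepristone without the inducible mutant or an added solute other than NaCl. Effects of the drug and of the mutant, or of NaCl and of osmolality, therefore cannot be told apart.

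Cells of the inner medulla live in a hypertonic surrounding. In such cells the transcription factor NFAT5 is known to raise genes that import or make compatible organic osmolytes, such as betaine, taurine, myo-inositol and sorbitol, together with chaperones. The factor blocked by the mutant is known to maintain genes of tubule epithelium, among them genes of cystic kidney disease and of solute transport.

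Expression is given as FPKM, fragments per kilobase of transcript scaled to the size of the library, as the authors deposited it. The recovered reads of the 6 libraries summed to between 45037274 and 49069539, and the upper limit set by a count of 0 (3 reads) corresponds to 0.0611 to 0.0666 CPM. The 14044 genes whose FPKM reached 1 in 3 or more of the 12 libraries were tested with limma on log2(FPKM + 0.5), and a gene was called at a Benjamini-Hochberg adjusted p under 0.05. A log2 difference below is NaCl alone minus mifepristone alone on this scale, which understates the difference of genes near 0. Log2 values correlated at 0.9893 to 0.9973 between libraries of a group and at 0.9341 to 0.9397 between the 2 groups. Deviations from the group mean, which are not independent within a group, followed transcript length in both groups. Spearman's rho across genes was 0.465, 0.423 and -0.513 in mifepristone A, B and C. It was -0.289, 0.287 and 0.045 in NaCl A, B and C. The library weight of mifepristone C in limma was the lowest at 0.122. Whether A, B and C stand for separate cultures is not in the labels, so p-values reflect only library-to-library spread, which may be technical.

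Most tested genes differed between the 2 treatments. Of 14044 genes, 8930 were called (63.6%), of which 4302 were higher with NaCl (30.6%) and 4628 higher with mifepristone (33.0%). The typical difference was small: the median over all genes was -0.02 and the median absolute log2 difference was 0.26. At least 2-fold differences were found for 575 genes higher with NaCl (4.09%) and 682 higher with mifepristone (4.86%), and at least 4-fold differences for 126 and 124. The 3 NaCl libraries and the 3 mifepristone libraries did not overlap for 9435 genes (67.2%), 4528 of them higher with NaCl and 4907 higher with mifepristone. A required change of at least 1.5-fold in the test left 830 and 936 calls.

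**Figure D1:**
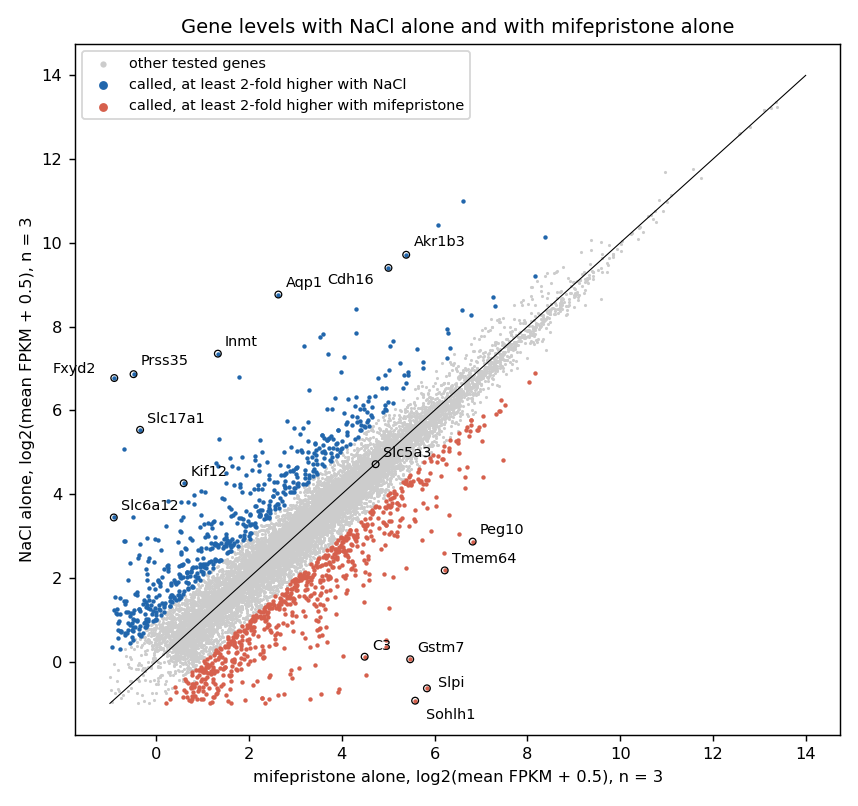
Mean levels of the 14044 tested genes, as log2(mean FPKM + 0.5) over 3 libraries, with NaCl alone (vertical axis) against mifepristone alone (horizontal axis), where the line marks equal levels. The 575 genes at least 2-fold higher with NaCl lie above the line, the 682 at least 2-fold higher with mifepristone lie below it, and Slc5a3 lies on it.

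Upstream sequences are shown for 6 genes whose levels carry the contrasts described below: Slc6a12 and Sgk1 for the hypertonic response, and 2 pairs, Ifit3 with Gbp2 and Nfkbia with Cxcl10, whose members hold the same letters but differed between the treatments in opposite directions. Each is the 250 bases before the RefSeq start site on GRCm38.p6, 5′ to 3′ on the gene's own strand. Capitals mark matches on either strand to TGGAAA, the core of NFAT5 sites, in the first pair, to GAAANNGAAA, the core of interferon response elements, in the second, and to GGANTTTCC, a form of NF-kB sites, in the third. Matches to the motif of another pair are left in small letters, such as GAAANNGAAA in the Cxcl10 window and GGANTTTCC in the Slc6a12 window. The windows are chr6:121342324-121342573 on the plus strand for Slc6a12, chr10:21881934-21882183 plus for Sgk1, chr19:34583279-34583528 plus for Ifit3, chr3:142620413-142620662 plus for Gbp2, chr12:55492648-55492897 minus for Nfkbia and chr5:92348890-92349139 minus for Cxcl10.
Slc6a12: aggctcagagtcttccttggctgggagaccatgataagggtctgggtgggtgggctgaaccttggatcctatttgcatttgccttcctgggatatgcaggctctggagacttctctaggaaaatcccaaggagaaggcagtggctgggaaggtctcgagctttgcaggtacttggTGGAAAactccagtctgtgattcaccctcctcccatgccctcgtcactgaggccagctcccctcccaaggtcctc
Sgk1: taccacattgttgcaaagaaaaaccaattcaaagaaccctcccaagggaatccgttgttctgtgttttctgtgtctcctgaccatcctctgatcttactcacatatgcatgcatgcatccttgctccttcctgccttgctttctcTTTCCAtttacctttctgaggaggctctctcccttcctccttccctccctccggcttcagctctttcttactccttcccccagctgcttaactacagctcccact
Ifit3: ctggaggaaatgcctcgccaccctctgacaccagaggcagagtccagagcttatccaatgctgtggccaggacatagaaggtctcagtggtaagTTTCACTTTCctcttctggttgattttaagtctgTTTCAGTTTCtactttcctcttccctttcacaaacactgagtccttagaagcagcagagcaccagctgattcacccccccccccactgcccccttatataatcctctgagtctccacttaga
Gbp2: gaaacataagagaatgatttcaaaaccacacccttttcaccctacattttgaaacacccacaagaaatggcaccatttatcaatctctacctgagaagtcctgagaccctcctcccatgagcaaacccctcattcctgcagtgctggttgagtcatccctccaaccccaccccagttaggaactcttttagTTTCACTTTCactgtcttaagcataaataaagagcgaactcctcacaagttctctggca
Nfkbia: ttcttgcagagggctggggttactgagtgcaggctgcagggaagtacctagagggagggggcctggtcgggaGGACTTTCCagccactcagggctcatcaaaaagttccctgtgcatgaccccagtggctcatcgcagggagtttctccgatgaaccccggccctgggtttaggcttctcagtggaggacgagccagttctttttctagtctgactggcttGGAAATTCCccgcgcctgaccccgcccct
Cxcl10: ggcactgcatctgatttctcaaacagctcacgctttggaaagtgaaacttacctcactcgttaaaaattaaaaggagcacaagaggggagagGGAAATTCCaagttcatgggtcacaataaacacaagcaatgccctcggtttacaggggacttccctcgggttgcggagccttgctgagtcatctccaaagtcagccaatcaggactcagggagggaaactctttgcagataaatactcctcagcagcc

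TGGAAA was found in 25% of the 24 windows of the osmolyte list and in 18.6% of 32851 windows of all genes. GAAANNGAAA was found in 37.5% of the 24 windows of the interferon list and in 2.98% of all windows. GGANTTTCC was found in 36.8% of the 19 windows of the NF-kB list and in 1.07% of all windows. The motifs are not nested in each other, although GGANTTTCC and TGGAAA can overlap by their GGAAA letters on opposite strands. A match describes letters in this window and not a bound site.

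Genes of the hypertonic response separated the 2 treatments, although not all of them. The list of osmolyte and hypertonic genes held 15 tested members, of which 10 were higher with NaCl and 1 with mifepristone (8 and 1 at least 2-fold). Over all genes the shares were 30.6% and 33.0% (4.09% and 4.86% at least 2-fold). The median of the list was 1.34 against -0.02 over all genes. Akr1b3 (chr6:34302434-34317478, the span of the gene in GENCODE M21 on GRCm38, as for the genes below), aldose reductase, which makes sorbitol from glucose, reached 865, 795 and 860.2 FPKM with NaCl in libraries A, B and C and 39.7, 37.7 and 46.7 with mifepristone, against 28, 24.2 and 24.5 with vehicle. The NaCl libraries stood far above both other groups, and the mifepristone libraries lay above the vehicle libraries without overlap. The log2 difference was 4.33 (SE 0.08, adjusted p = 6.52e-12), 20.1-fold. Slc6a12 (chr6:121343076-121365775), the betaine transporter, had 9.54, 10.3 and 11.2 FPKM with NaCl and 0.036, 0.0277 and 0.0264 with mifepristone. Its transcripts were thus near the floor in all mifepristone libraries, with 13 reads over the group against 4333 with NaCl, a ratio of 337 scaled to depth (95% exact counting interval 197 to 634). Slc6a12 reached an FPKM of 1 only in libraries given NaCl, so it passed the filter through that side and could be counted only there. The window upstream of Slc6a12 printed above holds TGGAAA once, 75 bases before the start site.

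Slc6a6, the taurine transporter, measured 111, 117 and 118 FPKM with NaCl and 44.2, 43 and 33.3 with mifepristone, a log2 difference of 1.52 (SE 0.10, adjusted p = 1.96e-07). The mifepristone libraries were close to vehicle, at 43.1, 49.3 and 52.1. Sgk1, a kinase that raises sodium transport, measured 32.2, 30.2 and 32.7 with NaCl, 4.2, 4.37 and 4.53 with mifepristone and 2.43, 2.23 and 2.18 with vehicle, a log2 difference of 2.73 (adjusted p = 1.91e-12). All 3 NaCl libraries were several times above the rest. Also higher with NaCl were Hspa4l, a chaperone (2.43), and Rnf183, a ubiquitin ligase of the renal medulla (2.51). Gdpd5, which degrades the osmolyte glycerophosphocholine, went the other way, with a mean of 0.742 FPKM with NaCl and 6.27 with mifepristone (-2.45).

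Slc5a3, the myo-inositol transporter, was not told apart between the 2 treatments. Its FPKM was 24.8, 26.1 and 26.3 with NaCl and 29.8, 26.4 and 21.8 with mifepristone, against 5.87, 6.06 and 6.02 with vehicle. Every library of both groups lay well above vehicle, and the mifepristone libraries spread around the NaCl libraries. The log2 difference was -0.005 (95% interval -0.21 to 0.20, adjusted p = 0.968). Slc5a3 lies inside Mrps6, a mitochondrial ribosomal protein gene on the same strand, so reads of the pair may not have been separable in counting. Mrps6 was not called (0.11, adjusted p = 0.298), but it was called higher with NaCl without mifepristone C (0.20, limma adjusted p = 0.0355), with library weights (0.19, 0.00612) and with quantile normalization (0.17, 0.0113). Nfat5 itself measured 49.8, 57.4 and 54.9 with NaCl and 62.2, 54.9 and 36.9 with mifepristone, which overlapped (log2 difference 0.10, 95% interval -0.26 to 0.47, adjusted p = 0.598). Vehicle libraries held 28.1, 33.9 and 35.8, and mifepristone C was the lowest of its group.

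The largest differences in favour of NaCl were in genes of several kinds. Fxyd2 (chr9:45399669-45410278), the regulatory gamma subunit of the Na,K-ATPase, had 106, 106 and 114 FPKM with NaCl and 0.0696, 0 and 0.0319 with mifepristone, against 0.0365, 0.0707 and 0.0325 with vehicle. It was near the floor without salt, with or without mifepristone, with 9412 reads over the NaCl group and 3 over the mifepristone group, a ratio of 3176 (95% exact counting interval 1086 to 15401). Prss35, a serine protease, showed the same layout, with 117, 109.7 and 121 with NaCl, 0.185, 0.246 and 0.205 with mifepristone and 0.0536, 0.117 and 0.0299 with vehicle (7.35). Ranbp3l, a nuclear export factor, likewise had means of 33.2, 0.119 and 0.131 FPKM (5.77). These 3 genes were high in the NaCl libraries and near 0 in the other 6 libraries named.

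A further set was high with NaCl and below vehicle with mifepristone, so that the vehicle level lay between the 2 treatments. Aqp1 (chr6:55336432-55348555), a water channel, measured 442, 433 and 428 FPKM with NaCl, 39.1, 37.7 and 40.4 with vehicle and 5.7, 5.47 and 5.93 with mifepristone, a direct log2 difference of 6.13 (SE 0.04, adjusted p = 4.67e-15), 70.2-fold. The 3 groups did not overlap. Cdh16 (chr8:104601911-104624396), the kidney-specific cadherin, measured 673, 672 and 684 with NaCl, 183, 185 and 195 with vehicle and 32.5, 31.2 and 31.2 with mifepristone (4.40, adjusted p = 3.51e-14). Kcnj16, a potassium channel subunit of tubule membranes, measured 181, 182 and 188 with NaCl, 29.9, 29.8 and 31.2 with vehicle and 9.27, 8.4 and 8 with mifepristone (4.35). The same order was seen in the means of Inmt, an indolethylamine methyltransferase (163, 17.9 and 2.01 FPKM), of Slc17a1, a phosphate and organic anion transporter (45.8, 1.08 and 0.285), and of Cdkl1, a cilium-associated kinase (110.4, 35.3 and 2.93). Paqr5, a progestin receptor family member, and Il5ra, an interleukin receptor, had it too, with log2 differences of 3.96 and 3.95.

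Kif12 (chr4:63165630-63172131), a kinesin linked to cystic disease, separated mainly on the mifepristone side. It measured 19.2, 19 and 17.8 FPKM with NaCl, 15.1, 15.4 and 15.1 with vehicle and 1, 1.03 and 0.98 with mifepristone, a direct difference of 3.67 (SE 0.06, adjusted p = 1.85e-12). NaCl and vehicle libraries were within a few FPKM of each other, and the mifepristone libraries all lay near 1. Me1, the cytosolic malic enzyme, which supplies NADPH, separated on the NaCl side, with 234, 217 and 225 with NaCl, 11.4, 11.4 and 11.9 with mifepristone and 13.7, 13.2 and 12.1 with vehicle (4.23). Against the shared vehicle libraries the log2 values of Kif12 were 0.29 with NaCl and -3.38 with mifepristone, and those of Me1 were 4.06 and -0.16. These 2 values per gene use the same vehicle libraries.

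**Figure D2:**
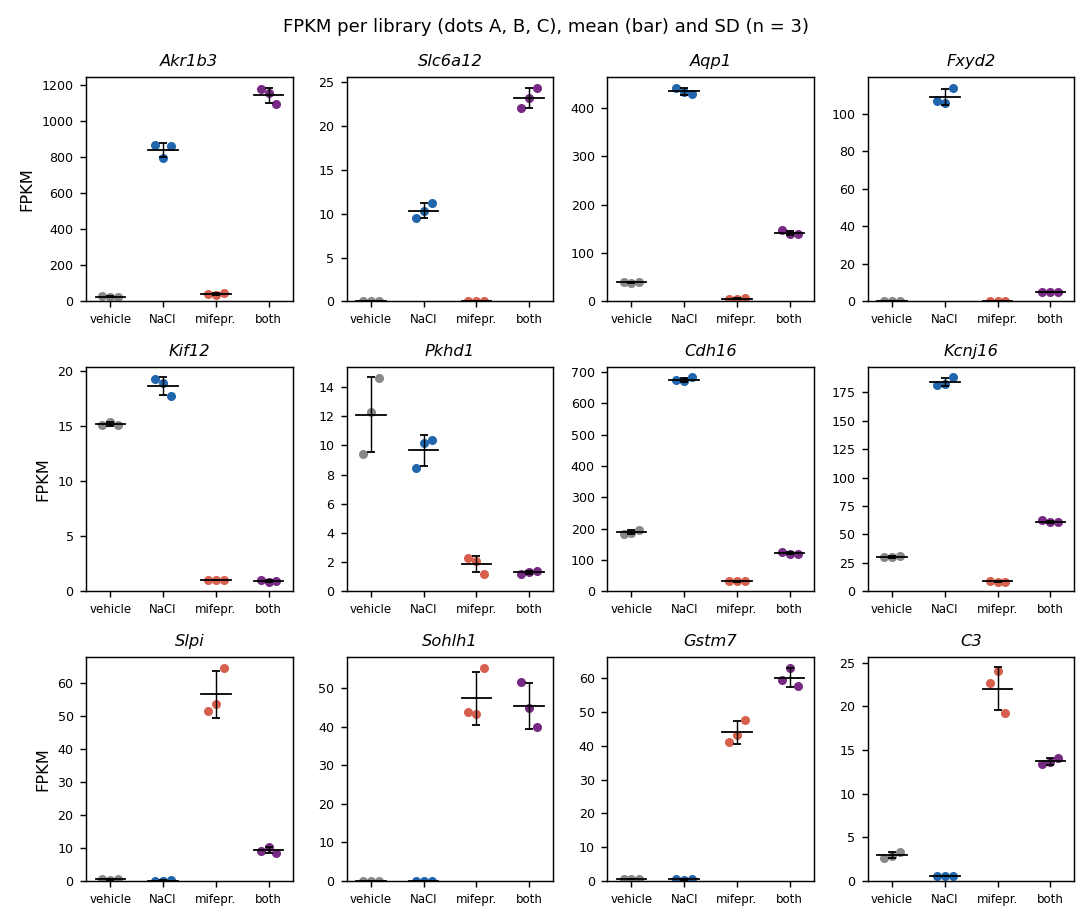
FPKM of 12 genes in each library (dots A, B, C from left to right) of the 4 groups, with the mean (bar) and SD (n = 3) and with mifepr. for mifepristone and both for mifepristone plus NaCl. Akr1b3, Slc6a12 and Fxyd2 stand high with NaCl and low with mifepristone, Aqp1, Cdh16 and Kcnj16 have vehicle between the 2 treatments, Kif12 is low only where mifepristone was given among the 4 groups drawn, and Slpi, Sohlh1, Gstm7 and C3 stand high with mifepristone and low with NaCl.

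The genes highest with mifepristone against NaCl were of mixed kinds. Sohlh1 (chr2:25842995-25847248), a transcription factor of germ cells, measured 43.7, 43.1 and 55.3 FPKM with mifepristone and 0.0174, 0.0345 and 0.0164 with NaCl, or 8720 against 4 reads, a ratio of 2154 (95% exact counting interval 841 to 7907). Of 7 germ cell markers 2 reached a mean FPKM of 1, Sohlh1 and Sycp3, and Figla and Mael were at 0. The list summed to 43.7 to 55.8 FPKM with mifepristone and 1.49 to 1.74 with NaCl, so Sohlh1 made up nearly all of it with mifepristone. Slpi (chr2:164354070-164389095), a secreted inhibitor of leukocyte proteases, measured 51.5, 53.6 and 64.7 with mifepristone, 0.0949, 0.132 and 0.197 with NaCl and 0.528, 0.454 and 0.697 with vehicle (-6.47, SE 0.11, adjusted p = 2.52e-12). Mifepristone libraries were high and NaCl libraries lay below all vehicle libraries.

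Gstm7, a glutathione transferase, measured 41, 43.3 and 47.6 FPKM with mifepristone and 0.601, 0.417 and 0.595 with NaCl, the latter overlapping vehicle at 0.649, 0.488 and 0.578 (-5.42). Gstm genes are close paralogs, so reads may be shared among them. Ass1, the argininosuccinate synthase of arginine synthesis, measured 13.9, 15.3 and 15.1 with mifepristone and 0.0742, 0.184 and 0.132 with NaCl (-4.60, adjusted p = 1.89e-12). Fzd4, a Wnt receptor, measured 33.2, 31.8 and 26.1 with mifepristone, 0.733, 0.761 and 0.841 with NaCl and 2.15, 2.33 and 2.58 with vehicle (-4.59). The NaCl libraries of Fzd4 were all below vehicle and the mifepristone libraries all above it. Fgfbp1, a carrier of fibroblast growth factors, had the same order in its means, 30.4 with mifepristone, 5.64 with vehicle and 0.921 with NaCl, and so did Ly6a, a surface antigen (73.2, 17.2 and 5.53). Peg10, an imprinted gene of retroviral origin, measured 125, 121 and 92 with mifepristone and 6.46, 7.02 and 6.87 with NaCl (-3.94), with mifepristone C the lowest of its group. Tmem64, a membrane protein gene, had means of 74 and 4.02 (-4.04), Chst1, a keratan sulfate sulfotransferase, of 22.4 and 0.306 (-4.83), and Pkdcc, a secreted kinase, of 31.9 and 1.94 (-3.73). Prune2 and Stox2 were also among the 15 largest, at -4.60 and -3.86.

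The gene lists described next are read against the shares over all genes, 30.6% higher with NaCl and 33.0% higher with mifepristone. For at least 2-fold differences these shares are 4.09% and 4.86%. Genes that earlier studies tied to the blocked factor in kidney were mostly higher with NaCl than with mifepristone: 16 of 21 tested members, against 3 higher with mifepristone, with a median of 1.37. The list's median against the shared vehicle libraries was -0.30 with NaCl and -1.36 with mifepristone. Part of that list was chosen on these samples and is not independent evidence of its direction. With a count-based fit (voom) its median was 2.14, and several members are near 0 with mifepristone. Fxyd2, a member, reached an FPKM of 1 only in libraries given NaCl, so it passed the filter through that side and could be counted only there. Pkhd1, the gene of recessive polycystic kidney disease, measured 8.44, 10.1 and 10.4 FPKM with NaCl, 9.42, 12.3 and 14.6 with vehicle and 2.27, 2.07 and 1.21 with mifepristone (2.14, SE 0.18, adjusted p = 1.44e-06). The NaCl and vehicle libraries overlapped, and every mifepristone library lay far below them. Umod, uromodulin, was below vehicle under both treatments, with 0.826, 0.829 and 0.927 with NaCl, 0.175, 0.115 and 0.226 with mifepristone and 3.72, 3.67 and 4.12 with vehicle (1.02). Socs3, a feedback inhibitor of cytokine signals, was the largest exception, with means of 3.38 with NaCl and 23.7 with mifepristone (-2.64). Nr1h4, the bile acid receptor FXR, was above vehicle under both treatments, at 7.55, 6.77 and 6.39 with NaCl, 4.32, 4.17 and 4.63 with mifepristone and 1.98, 1.78 and 1.77 with vehicle, and higher with NaCl (0.60, adjusted p = 1.95e-05).

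Of 18 tested genes of cystic kidney disease, 13 were higher with NaCl (7 at least 2-fold) and 3 with mifepristone, with a median of 0.53. Muc1, an apical mucin, had the largest difference of the list, with 29.2, 28.2 and 28.3 FPKM with NaCl, 2.71, 2.51 and 2.31 with mifepristone and 2.19, 2.49 and 2.41 with vehicle (3.27). Mifepristone and vehicle overlapped for Muc1. Bicc1, an RNA-binding protein, had means of 124 with NaCl and 32 with mifepristone (1.94), Cys1, a ciliary membrane protein, of 9.33 and 2.11 (1.91), and Glis2, a zinc finger factor, of 36 and 17.7 (1.01). Pkd1, the gene of polycystin-1, went the other way at -0.80, with means of 4.28 with NaCl and 8.01 with mifepristone. Pkd2, the gene of polycystin-2, was not called: 14, 14.4 and 14.4 with NaCl and 14.4, 14.2 and 12.2 with mifepristone overlapped (0.07, 95% interval -0.05 to 0.19, adjusted p = 0.275).

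Primary cilium genes differed little beyond Cdkl1. Of 32 tested members, 17 were higher with NaCl and 8 with mifepristone, with a median of 0.24, and 1 reached 2-fold, Cdkl1. Ift80, of the transport complex that moves cargo toward the ciliary tip, had means of 14.4 with NaCl and 7.29 with mifepristone (0.94). Its complex partner Ift46 had 7.72 and 11 (-0.48), and Bbs2, of the BBSome, 6.34 and 10.2 (-0.65).

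Among genes of water, urea and vasopressin signalling, 8 of 19 were tested, 5 of them higher with NaCl, all at least 2-fold, and 3 higher with mifepristone, with a median of 1.41. Besides Aqp1 these were Pde4c, a cAMP phosphodiesterase (means 5.83 with NaCl and 0.569 with mifepristone, 2.56), Prkar2b, a regulatory subunit of protein kinase A (78.7 and 19.4, 1.99), Adcy6, an adenylyl cyclase (67.5 and 24.6, 1.44), and Slc14a2, a urea transporter (1.69 and 0.348, 1.36). Prkar2b measured 80, 75.7 and 80.3 with NaCl, 19.6, 19 and 19.6 with mifepristone and 13.5, 13 and 12.4 with vehicle, so that both treatments lay above vehicle and NaCl the further. The 3 higher with mifepristone were Aqp5, Pde4d and Akap7, none of them 2-fold (lowest -0.815). With voom 3 members of the list were at least 2-fold higher with mifepristone. The defining markers of principal cells, the water-reabsorbing cells of the collecting duct, were near 0 in these libraries, with 2 reads of Aqp2 and 5 of Avpr2 over the 6 libraries. Of 10 principal cell markers 1 reached a mean FPKM of 1, and of 11 tubule epithelium markers 9 did. Of 8 proximal tubule markers 1 did, Aqp1 itself.

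Ion pump and transporter lists held calls in both directions. The share called in either direction was near that over all genes (63.6%) for the Na,K-ATPase list and for the sodium, chloride and bicarbonate list. Of 8 tested Na,K-ATPase, FXYD and sodium channel genes, 4 were higher with NaCl, all at least 2-fold, and 1 with mifepristone. Atp1b1, the beta subunit of the sodium pump, measured 361, 354 and 365 FPKM with NaCl, 159, 157 and 155 with mifepristone and 87.6, 85.8 and 84 with vehicle (1.19, adjusted p = 2.80e-10). Both treatments lay above vehicle in every library for Atp1b1, whereas Fxyd2 was near the floor with mifepristone and with vehicle. Scnn1a, a sodium channel subunit, was higher with mifepristone (means 0.405 with NaCl and 2.08 with mifepristone, -1.51).

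Of 12 tested sodium, chloride and bicarbonate transporters, 5 were higher with NaCl and 3 with mifepristone. Slc4a11, a membrane transporter of the bicarbonate family, had means of 25.3 with NaCl and 4.16 with mifepristone (2.47), and Slc12a4, a potassium-chloride cotransporter, of 10.9 and 3.57 (1.49). Cftr, a chloride channel, went the other way, with 0.562, 0.504 and 0.453 with NaCl, 3.8, 3.82 and 3 with mifepristone and 0.586, 0.601 and 0.532 with vehicle (-1.999). NaCl and vehicle overlapped for Cftr. Of 13 organic ion and phosphate transporters, 8 were higher with NaCl and 4 with mifepristone, led by Slc17a1 and by Slco4a1, an organic anion transporter, at 232, 226 and 234 with NaCl and 20.3, 18.4 and 19.5 with mifepristone (3.54). Abcc4, an exporter of cyclic nucleotides and anions, had 2.01, and Slc20a2, a phosphate transporter, -1.29. Of 15 amino acid transporters, 4 were higher with NaCl and 8 with mifepristone, with a median of -0.12. Slc7a6, a cationic and neutral exchanger, stood out of that list at 121, 118 and 124 with NaCl and 15.5, 15.8 and 14.8 with mifepristone (2.94), while Slc7a5, the large neutral exchanger, was at -0.67.

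Complement, acute phase and interferon genes were mostly higher with mifepristone. Of 24 listed complement and acute phase genes, 12 were tested. Of these, 9 were higher with mifepristone, 8 of them at least 2-fold, and 2 with NaCl, with a median of -1.45. Slpi and Saa3 reached an FPKM of 1 only in libraries given mifepristone. They passed the filter through the side where they are high and could be counted only there, so the count and median lean to that side. C3 (chr17:57203970-57228136), the central complement component, measured 22.7, 24 and 19.3 FPKM with mifepristone, 2.69, 2.85 and 3.32 with vehicle and 0.553, 0.623 and 0.572 with NaCl (-4.37, SE 0.08, adjusted p = 6.05e-12). Lcn2, the iron-binding lipocalin of injured tubules, measured 41.1, 38.9 and 44.2 with mifepristone, 29.6, 26.1 and 26.8 with vehicle and 4.19, 4.27 and 4.04 with NaCl (-3.16). For both genes vehicle lay between the treatments without overlap. Saa3, an acute phase apolipoprotein, had 720 reads with mifepristone and 3 with NaCl (ratio 237, 95% exact counting interval 80.8 to 1152), and Orm1, orosomucoid, had 190 and 0, at least 62.6-fold higher with mifepristone by the limit of 3 reads over the group. Lbp, the lipopolysaccharide-binding protein, had means of 38.2 with mifepristone and 15 with NaCl (-1.32).

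Of 30 interferon response genes, 24 were higher with mifepristone and 4 with NaCl, with a median of -0.51, and 3 and 2 were at least 2-fold. Ifi27l2a, a small interferon-induced membrane protein, measured 87.1, 83.9 and 102 FPKM with mifepristone, 7.2, 8.07 and 8.14 with NaCl and 6.53, 5.4 and 5.29 with vehicle (-3.46). Oasl2, of the oligoadenylate synthetase family, had means of 21.8 and 8.86 (-1.253), and Mx1, an antiviral GTPase, of 7.11 and 1.79 (-1.73). Ifit3, an antiviral protein of the IFIT family, was the clearest member the other way, with 437, 401 and 418 with NaCl, 152, 148 and 160.4 with mifepristone and 334, 323 and 321 with vehicle (1.45). Gbp2, a guanylate-binding protein, was higher with mifepristone at 27.5, 25.2 and 27.6 than with NaCl at 14.5, 13.6 and 13.5 (-0.92, adjusted p = 1.71e-06). Both windows printed above hold GAAANNGAAA, Ifit3 at 2 places, 156 and 122 bases before the start site, and Gbp2 at 1, 59 bases before it. Of 16 class I antigen presentation genes, 8 were higher with mifepristone and 4 with NaCl, with a median of -0.26. The peptide transporter Tap1 (-0.76) and the trimming peptidase Erap1 (-0.70) were on the mifepristone side, and the chaperone Calr (0.50) on the NaCl side.

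NF-kB and chemokine genes split by member. Of 23 tested, 12 were higher with NaCl and 4 with mifepristone, with a median of 0.17, and 2 in each direction were at least 2-fold. Nfkbia, the inhibitor IkB-alpha, measured 33.4, 29.4 and 29.8 FPKM with NaCl, 87.7, 88 and 97.8 with mifepristone and 16.6, 15 and 15.3 with vehicle (-1.55, adjusted p = 2.70e-09). Both treatments lay above vehicle for Nfkbia, mifepristone the further. Cx3cl1, the chemokine fractalkine, had means of 4.47 with NaCl and 18.7 with mifepristone (-1.95). The chemokines Ccl5 (means 40.3 with NaCl and 11.8 with mifepristone, 1.73) and Cxcl10 (31.1 and 13.2, 1.21) went the other way, as did the subunit Nfkb2 (39.9 and 24, 0.72). GGANTTTCC stands 178 and 29 bases before the start site of Nfkbia and 158 bases before that of Cxcl10 in the sequences above. Immune markers summed to 21.7 to 23.2 FPKM with NaCl, 11.5 to 11.9 with mifepristone and 27.5 to 29.9 with vehicle. Most of each sum was Csf1r, a receptor of macrophages, with means of 18.1, 6.28 and 25.4. Cd68, another of these markers, went the other way, with means of 2.84 with NaCl and 4.04 with mifepristone. The part of the immune markers in the NF-kB and chemokine differences was not tested.

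Genes of glucose metabolism were mostly higher with NaCl. Of 23 tested glycolysis and hypoxia target genes, 19 were higher with NaCl (4 at least 2-fold) and 2 with mifepristone, with a median of 0.64. Slc2a1, the glucose transporter GLUT1, measured 109, 109 and 108 FPKM with NaCl, 25.9, 27.2 and 27.4 with mifepristone and 74.7, 70 and 74 with vehicle (1.999, SE 0.05, adjusted p = 1.93e-11). Vehicle lay between the treatments. Hk1, hexokinase 1, measured 61.6, 62.8 and 62.1 with NaCl and 23, 23.8 and 22 with mifepristone (1.42), and Bnip3, a mitophagy receptor, 139.7, 139.9 and 136 with NaCl and 35.5, 39.2 and 37.9 with mifepristone (1.87). Egln3, the oxygen-sensing prolyl hydroxylase, was at 1.32, and the enzymes Aldoa, Eno1 and Pgk1 at 0.74, 0.83 and 0.86. Vegfa, a growth factor of blood vessels, was higher with mifepristone (-0.66).

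Cholesterol genes were mostly lower with mifepristone than with NaCl. Of 25 genes of cholesterol synthesis and uptake, 19 were higher with NaCl and 5 with mifepristone, with a median of 0.42, and no member reached 2-fold in either direction. The list's median against the shared vehicle libraries was -0.49 with NaCl and -1.01 with mifepristone. Lss, lanosterol synthase, measured 21.8, 23.8 and 23.2 FPKM with NaCl, 12.4, 12.6 and 10.6 with mifepristone and 31.8, 34.7 and 35.1 with vehicle (0.93, adjusted p = 2.51e-07). Insig1, the sterol-regulated anchor of the SREBP pathway, measured 139, 140.0 and 139 with NaCl, 83.5, 89 and 83.3 with mifepristone and 182, 183 and 175 with vehicle (0.71). The 3 groups of both genes did not overlap, with vehicle highest. Of 17 fatty acid genes, 6 were higher in each direction, near the shares over all genes. Acsl1, which activates fatty acids, was higher with NaCl (6.57 and 2.14, 1.42), and its relative Acsl3 with mifepristone (26.5 and 52.3, -0.97).

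Heat shock genes did not separate as a block. Of 21 heat shock genes, 8 were higher with NaCl (5 at least 2-fold) and 7 with mifepristone (1 at least 2-fold). The called counts were near the shares over all genes in both directions, while the 5 lay above the 4.09% over all genes. Without mifepristone C the 8 higher with NaCl became 12. The inducible Hspa1b measured 244, 239 and 248 FPKM with NaCl, 73.5, 74.3 and 80.5 with mifepristone and 39.9, 38.1 and 40.6 with vehicle (1.68), and its near-identical copy Hspa1a, with which it may share reads, was at 1.67. Hsph1, a large chaperone, had 79.9, 77.5 and 81.8 with NaCl, 23.8, 23 and 23.8 with mifepristone and 19.7, 19.9 and 18.9 with vehicle (1.74), and Cryab, a small heat shock protein, a log2 difference of 1.78. Bag3, a co-chaperone, went the other way, with 6.41, 6.29 and 6.55 with NaCl, 17.8, 17.7 and 18.6 with mifepristone and 6.24, 6.45 and 5.84 with vehicle (-1.42). Of 25 unfolded protein and ATF4 stress genes, 13 were higher with NaCl and 4 with mifepristone, with a median of 0.28. Xbp1, a factor of the unfolded protein response, had means of 23.5 and 8.76 (1.38), and Atf3, a stress factor, of 47.9 and 22.2 (1.09), both higher with NaCl.

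Of 22 NRF2 and glutathione genes, 12 were higher with mifepristone and 5 with NaCl, with a median of -0.21. Gstm2, a glutathione transferase, measured 124, 126 and 143 FPKM with mifepristone, 49.8, 49.1 and 47.1 with vehicle and 20.9, 20.3 and 21.4 with NaCl (-2.62). Gclm, a subunit of the glutathione-making ligase, was higher with NaCl (20.5 and 9.28, 1.10). In amino acid metabolism 6 of 15 were higher with NaCl and 7 with mifepristone. Cbs, which starts transsulfuration, measured 6.58, 6.71 and 6.96 with NaCl, 0.908, 0.93 and 0.803 with mifepristone and 10.9, 11.8 and 12 with vehicle (2.39). Both treatments lay below vehicle for Cbs, mifepristone much the further. Psat1, of serine synthesis, lay above vehicle under both, with means of 95.3 with NaCl, 168 with mifepristone and 40.6 with vehicle (-0.81).

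Junction and matrix genes were mostly higher with mifepristone. Of 15 tight junction genes, 10 were higher with mifepristone and 2 with NaCl, with a median of -0.35. Cldn8, a claudin of the distal nephron, measured 46.1, 45.3 and 51.4 FPKM with mifepristone, 33.3, 31.2 and 29.9 with vehicle and 9.53, 9.86 and 9.7 with NaCl (-2.24, adjusted p = 3.12e-10), and Cldn3 measured 16, 18.1 and 20 with mifepristone, 14.7, 12.8 and 13.7 with vehicle and 4.73, 5.03 and 4.41 with NaCl (-1.82). Vehicle lay nearer to mifepristone than to NaCl for both claudins. Of 19 matrix and TGF-beta genes, 12 were higher with mifepristone and 5 with NaCl, with a median of -0.36. Tgfb3, a ligand, was at -1.77 (means 0.775 with NaCl and 3.86 with mifepristone), while Col18a1, a basement membrane collagen, was at 1.26 and Tgfb1 at 0.96. Among fibroblast markers 1 of 8 reached a mean FPKM of 1, and the list summed to 5.66 to 6.37 FPKM with mifepristone and 0.240 to 0.343 with NaCl. The marker behind this sum was Dcn, the proteoglycan decorin, and its part in the matrix differences was not tested. Of 17 YAP-TEAD targets, 10 were higher with NaCl and 5 with mifepristone, with Ankrd1, a nuclear repeat protein, at means of 115 and 29.9 (1.93) and Cyr61, a matricellular protein, at 45.7 and 20.4 (1.15).

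Cell cycle genes differed by small amounts. Of 23 mitosis genes, 18 were higher with NaCl and 2 with mifepristone, with a median of 0.26, and none reached 2-fold. Bub1b, a spindle checkpoint kinase, measured 36.7, 39 and 38.8 FPKM with NaCl and 27.2, 26.4 and 24.7 with mifepristone (0.54), and Top2a, the mitotic topoisomerase, 121, 124 and 125 with NaCl and 92.5, 90.5 and 83.4 with mifepristone (0.47). Of 25 DNA replication genes, 9 were higher with NaCl and 5 with mifepristone. Ccne2, a cyclin of S-phase entry, was the replication gene furthest from 0, with 13.8, 13.4 and 13.8 with NaCl, 30.5, 29.6 and 30.8 with mifepristone and 15.8, 15.8 and 15.2 with vehicle (-1.12). Among 20 p53 target and apoptosis genes 8 were higher in each direction. Gdf15, a stress cytokine, measured 80.6, 73.8 and 81.2 with NaCl, 13.1, 13.2 and 15.9 with mifepristone and 38.6, 34.6 and 33.6 with vehicle (2.45), and Cdkn1a, the inhibitor p21, was at 0.998. For Gdf15 vehicle lay between the treatments.

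Immediate early genes differed in both directions. Of 22 tested, 9 were higher with NaCl (4 at least 2-fold) and 10 with mifepristone (5 at least 2-fold). Dusp6, a phosphatase that shuts off ERK, measured 87.1, 86.3 and 92.2 FPKM with NaCl, 9.53, 9.02 and 9.37 with mifepristone and 15.9, 14.5 and 15.6 with vehicle (3.18), and Dusp1, a related phosphatase, 35.5, 33.6 and 33.6 with NaCl, 6.41, 6.94 and 7.51 with mifepristone and 7.94, 7.48 and 7.15 with vehicle (2.22). Klf10, a TGF-beta-inducible factor, measured 8.27, 8.33 and 7.93 with NaCl, 60.7, 60.8 and 59 with mifepristone and 12.5, 13 and 12.6 with vehicle (-2.81, adjusted p = 4.10e-13). For Klf10 the mifepristone libraries were high and the NaCl libraries below vehicle. Egr1 (-1.31) and Nr4a1 (-1.63), rapidly induced factors, were also higher with mifepristone, and Jun (0.91) and Myc (0.97) with NaCl.

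Of 9 tested zinc genes, 4 were higher in each direction. Slc30a1, the zinc exporter, measured 2.11, 2.23 and 2.15 FPKM with NaCl, 22.1, 21.6 and 21.7 with mifepristone and 3.04, 3.24 and 3.26 with vehicle (-3.07, SE 0.04, adjusted p = 2.09e-13). Mt2, a metallothionein that binds zinc, measured 27.6, 27.4 and 27.8 with NaCl, 8.74, 11 and 11.3 with mifepristone and 72.8, 69.1 and 64.7 with vehicle (1.38). Slc30a1 was high with mifepristone and below vehicle with NaCl, and Mt2 was below vehicle under both treatments and lowest with mifepristone. Of the 13 protein-coding genes of the mitochondrial genome, 2 were called, mt-Nd6 (-0.31) and mt-Cytb (-0.20), both higher with mifepristone. mt-Nd6 overlaps mt-Nd5 on the opposite strand, and use of strand in counting is not given in the sources used here. Without mifepristone C, 5 were called higher with mifepristone. In the other direction mt-Nd1 stood at 0.19 without being called (adjusted p = 0.0586), and it was called higher with NaCl under 6 alternatives: quantile normalization (1.1e-05), library weights (0.0098), median-ratio scaling (0.0323), voom (0.0344), and leaving out vehicle A (0.0383) or vehicle C (0.0423). The call of mt-Nd6 ended without NaCl B (limma adjusted p = 0.0597), and that of mt-Cytb without NaCl B, NaCl C, mifepristone A or mifepristone B (0.0584 to 0.0932).

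**Figure D3:**
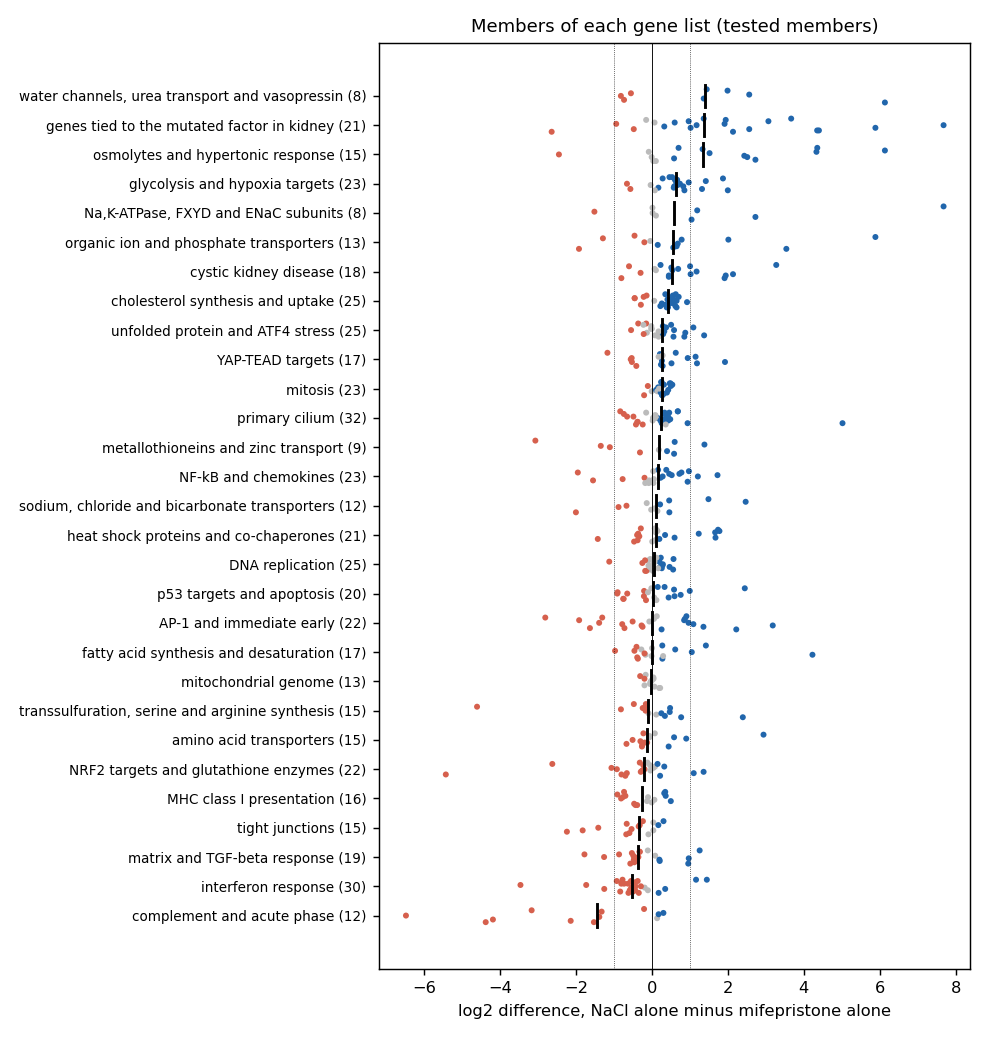
Log2 difference, NaCl alone minus mifepristone alone, of every tested member (dot) of each gene list, with the number of tested members in brackets and the list's median as a black bar, where blue dots were called higher with NaCl, red dots higher with mifepristone and grey dots not called, and dotted lines mark 2-fold. Medians run from -1.45 for complement and acute phase genes to 1.41 for water, urea and vasopressin genes, against -0.02 over all genes.

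Some genes lay away from vehicle by a like amount under both treatments. For 4649 genes (33.1%) the 95% interval of the direct difference lay within 0.32 of 0 on the log2 scale. Of these, genes with Gm, Rik, Mir, Snor or accession names were left out of the next counts. Among the rest, 21 differed from vehicle by at least 2-fold on average over the 2 treatments and in the same direction. Of the 21, 14 lay above vehicle and 7 below, where both treatments were set against the same vehicle libraries. Adh7, an alcohol dehydrogenase of retinol oxidation, measured 3.85, 4.39 and 4.05 FPKM with NaCl and 3.63, 3.3 and 3.65 with mifepristone, against 24.1, 24.7 and 23.4 with vehicle, and its small direct difference was called (0.19, adjusted p = 0.0107). Fmo2, a monooxygenase, measured 0.627, 0.686 and 0.744 with NaCl and 0.694, 0.6 and 0.557 with mifepristone against 3.54, 3.85 and 3.92 with vehicle (0.09, 95% interval -0.07 to 0.24, and 0.16 with voom). Both genes were far below vehicle in all 6 libraries.

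Above vehicle under both treatments stood Bcl6, a transcriptional repressor, at 7.44, 7.83 and 7.61 FPKM with NaCl, 8.93, 8.39 and 7.92 with mifepristone and 1.87, 1.9 and 1.87 with vehicle (-0.13, adjusted p = 0.0271). Snx9, of endocytic membrane remodelling, measured 92, 89.3 and 87.6 with NaCl, 83.6, 80.4 and 81.9 with mifepristone and 32.7, 30.7 and 30.7 with vehicle (0.13, adjusted p = 0.0162). The direct differences of Bcl6 and Snx9 were called at 1.10-fold and 1.09-fold, and leaving out 1 library ended these calls. The limma adjusted p of Snx9 was 0.0658 without NaCl A and 0.0573 without mifepristone B, that of Adh7 was 0.0508 without NaCl B, and that of Bcl6 ranged from 0.0576 to 0.104 without NaCl A, NaCl C, mifepristone A or mifepristone B and was 0.0651 under another scaling (median ratio). Cd74, the invariant chain of class II presentation, had means of 1.2, 1.3 and 0.121 with NaCl, mifepristone and vehicle (-0.08, 95% interval -0.28 to 0.12, and -0.11 with voom). Tmem169, a membrane protein gene, was below vehicle under both, at 0.484, 0.371 and 0.388 with NaCl, 0.396, 0.464 and 0.357 with mifepristone and 1.87, 1.79 and 1.89 with vehicle (0.01, 95% interval -0.15 to 0.18, and 0.03 with voom).

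**Figure D4:**
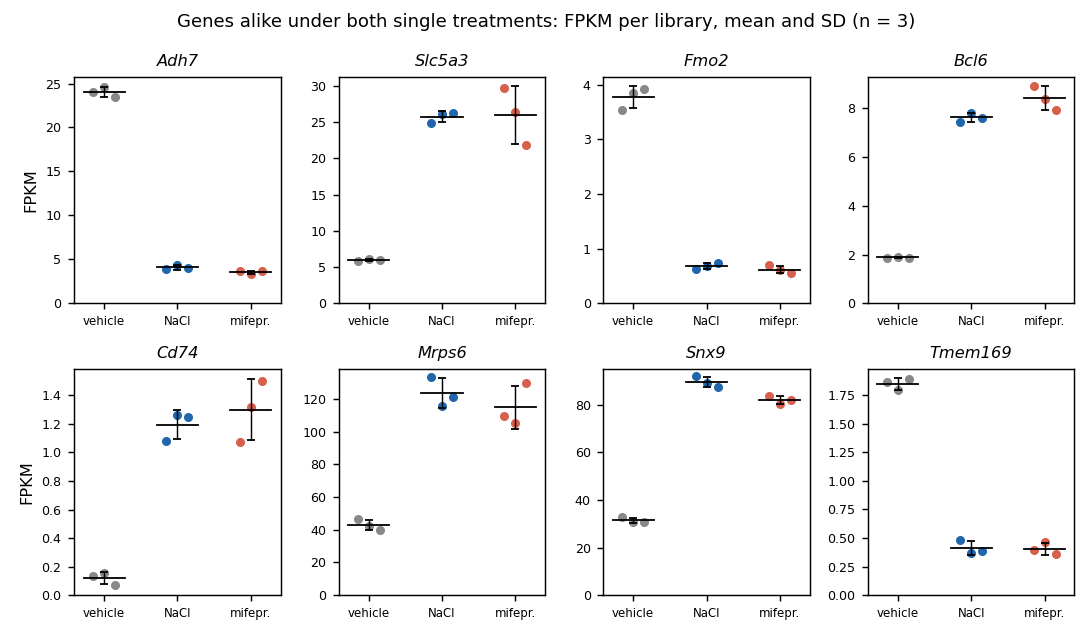
FPKM of 8 genes in each library (dots) with vehicle, NaCl alone and mifepristone alone, with the mean (bar) and SD (n = 3). Slc5a3, Bcl6, Cd74, Mrps6 and Snx9 stand above vehicle and Adh7, Fmo2 and Tmem169 below it under both treatments.

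The authors' deposited table marks genes with a nearby ChIP peak. Its header gives neither the antibody nor the distance, and the marks carry no replicate. Of all tested genes 3987 carried the mark (28.4%), and of the genes not called 21.8% did. The mark was on 309 of 575 genes at least 2-fold higher with NaCl (53.7%) and on 271 of 682 at least 2-fold higher with mifepristone (39.7%). Among at least 4-fold differences the shares were 59.5% and 38.7%. With voom on recovered reads the 2-fold shares were 48.2% and 38.9%. Aqp1, Cdh16, Kcnj16, Kif12, Pkhd1 and Slc17a1 carried the mark, as did Slpi and C3 on the other side, whereas Fxyd2, Akr1b3, Slc6a12, Sohlh1 and Gstm7 did not. Marked genes had a median level of 9.36 FPKM and unmarked genes of 8.41. These shares are descriptions with no test.

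**Figure D5:**
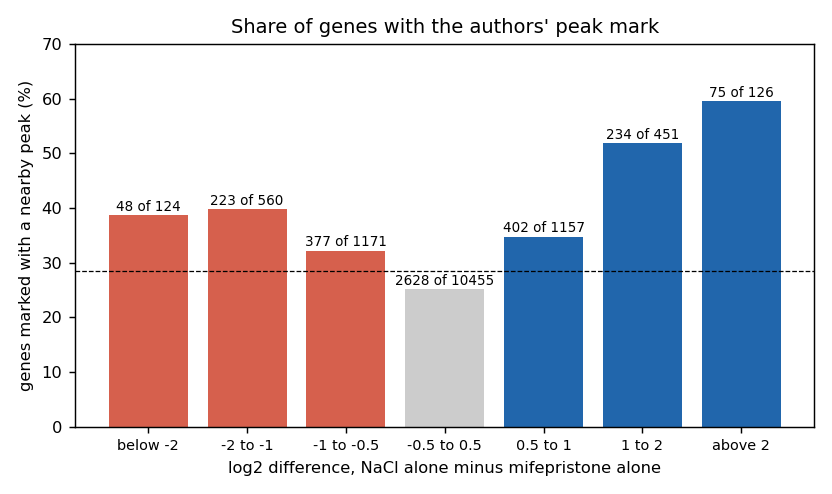
Share of tested genes that carry the mark for a ChIP peak nearby in the authors' table (bars, with the counts above), by log2 difference between NaCl alone and mifepristone alone, where the dashed line is the share over all tested genes, 28.4%. The share is lowest for genes within 0.5 of 0 and highest, 59.5%, for genes more than 2 higher with NaCl.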

How the data were processed

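Poly(A) RNA-seq libraries of IMCD3 subclone 53a were compared, 3 with NaCl and vehicle against 3 with mifepristone. Table columns named for the mutant were assigned to mifepristone titles by their NaCl part and letter and by knowledge of the study. STAR 2.4.2a, DESeq2 1.12.3, Trimmomatic 0.32 and SAMtools 1.0 are listed without roles, and GRCm38 as the build, per the submitters' processing notes, and the counting program is not given in the sources used here. The authors deposited FPKM for 48034 genes. The deposited comparison tables also hold a mean signal per gene (normalized counts, per the file headers) and a peak mark. FPKM and mean signal together gave whole reads for each library within a tolerance of 0.05, used for voom, read totals and counting intervals, which cover counting error only.

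limma 3.58.1 (R 4.3.3, trended, robust) was fitted to log2(FPKM + 0.5) with 4 group means over 12 libraries (8 residual degrees of freedom). The same fit was also run on simulated counts, with the outcome not reported here. Gene spans come from GENCODE M21 (99.0% of tested genes matched) and upstream windows from RefSeq on GRCm38.p6. Named genes were 14 set genes, the 15 largest differences each way among called, non-overlapping genes whose mean FPKM reached 1, up to 4 per list by adjusted p, and 8 alike under both treatments. Some of these are left out for length, and other list members and markers were named after their values were seen. The genes, lists and comparison were chosen with earlier results of these data known. Alternatives were other pseudocounts, filters and scalings, a replicate block, fewer libraries, library weights, a 1.5-fold minimum and voom. Tables and figures used Python 3.11.15, pandas 2.3.3, numpy 2.4.6, scipy 1.17.1 and matplotlib 3.10.9. Some genes of the lists are not reported here by name.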

Additional observations from a re-analysis of the deposited data

How the results depend on the processing

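Counts of genes higher with NaCl (4302) and with mifepristone (4628) stayed within 1.5 times under all alternatives run except 2. A mean FPKM of at least 5, which tests fewer genes, gave 2718 higher with NaCl, and 310 and 359 at least 2-fold higher with NaCl and with mifepristone. A required 1.5-fold change gave 830 and 936. Without the filter the counts were 5194 and 5319. At least 2-fold counts were 730 and 834 with a pseudocount of 0.1, 462 and 541 with 1, and 783 and 875 with voom. Leaving out 1 library gave 3935 to 4405 and 4130 to 4659. With the replicate letter as a block the counts were 4129 and 4399, or 574 and 680 at least 2-fold. Deviations of same-letter libraries of the 2 groups correlated at -0.273, 0.191 and -0.095. Because deviations also followed transcript length, these values cannot tell whether the letters pair the samples. The median of 4 lists lay near 0 and changed sign, and the cause was not tested. For p53 targets (0.03) it was -0.101 with the stricter filter and -0.002 to 0.061 with 1 library left out, and for zinc genes (0.18) it was -0.353 with the stricter filter and 0.098 without mifepristone C (0.098 to 0.238 with 1 library left out). For fatty acid genes (-0.01) it was -0.168 with the stricter filter, 0.009 with median-ratio scaling and -0.040 to 0.009 with 1 library left out. For AP-1 genes (-0.01) it was 0.011 with median-ratio scaling, 0.012 with quantile normalization, 0.011 with library weights and -0.054 to 0.035 with 1 library left out. The stricter filter, with fewer members tested, also moved the medians of primary cilium genes (0.24) to 0.079, NF-kB genes (0.17) to 0.038, class I genes (-0.26) to -0.101, complement genes (-1.45) to -2.27 and genes tied to the blocked factor (1.37) to 2.14. It moved those of Na,K-ATPase genes (0.577) to 1.045, water channel genes (1.405) to 1.992 and sodium transporters (0.111) to 0.301. Osmolyte genes (1.335) moved to 1.519 and tight junction genes (-0.347) to -0.440. Over all lists and alternatives 11 medians changed sign, 35 moved by more than the median SE of a gene and 621 did neither. No called named gene changed direction. Over all named genes and alternatives, 40 calls were lost and 12 gained, most of the losses under the 1.5-fold minimum. Depth limits genes near 0, such as Fxyd2 and Sohlh1, to a ratio of reads with a wide interval.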

Other observations

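Markers of tubule epithelium did not move together. Keratins 8 and 18, filaments of simple epithelia, had means of 286 and 338 FPKM with mifepristone and 118 and 174 with NaCl (Krt8 and Krt18, log2 differences -1.27 and -0.95). E-cadherin (Cdh1) was at 80.4 with mifepristone, 40.8 with NaCl and 67.4 with vehicle (-0.97, adjusted p = 8.75e-10), and Epcam at 141, 91.4 and 135 (-0.62). The kidney lineage factors Pax2 and Pax8 were higher with NaCl: Pax2 had 52.9 ± 1.58 FPKM (SD, n = 3) with NaCl, 6.5 ± 0.564 with mifepristone and a mean of 8.84 with vehicle (2.93), and Pax8 had 57.8 ± 0.778, 18 ± 0.5 and 27.6 (1.65). Emx2, another lineage factor, measured 18.9 with NaCl and 19.4 with mifepristone and was not called (-0.03, adjusted p = 0.557). The summed level of the 11 markers was 601 to 618 FPKM with NaCl, 888 to 1027 with mifepristone and 759 to 804 with vehicle.

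Single genes that mark other cell types also differed. Hsd11b2, which shields the mineralocorticoid receptor from cortisol-like hormones in principal cells, had 7.9 ± 0.644 FPKM (SD, n = 3) with mifepristone and 0.397 ± 0.0254 with NaCl (-3.23), while Scnn1b had 11 reads over the 6 libraries and Tfap2b had 0. Dcn had 5.69 ± 0.384 with mifepristone and 0.0735 ± 0.0176 with NaCl (-3.43), while Col3a1 had 1 read and Lum 7. Csf1r, a receptor of macrophages, had 18.1 ± 0.465 with NaCl and 6.28 ± 0.461 with mifepristone (1.46), with a mean of 25.4 with vehicle. The other immune markers did not share 1 direction: Cd68, a macrophage marker, had means of 2.84 with NaCl and 4.04 with mifepristone, Cd74 of 1.2 and 1.3, and Ptprc, the leukocyte antigen CD45, of 0.296 and 0.0119, while Cd3e had 0 reads and Adgre1 had 9.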
